A study of Mus musculus with 6 samples.

Results

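The 8 genes described here encode amino acid transporters linked to the growth of selected B cells: Slc7a5, Slc3a2, Slc1a5, Slc38a1, Slc38a2, Slc7a1, Slc7a6 and Slc7a11. They are the 8 rows, of 55421 in the deposited table, whose gene name is on that list; the rule names genes and holds no threshold on a value. RNA was sequenced from sorted GFP-positive germinal centre B cells of 3 SFR KO and 3 wildtype libraries. All 6 came from C57BL/6 mice that carry an AID-GFP reporter, and spleen cells were taken on day 9 after immunisation with NP(18)OVA in alum. The SFR KO group carries in addition a deletion that reaches from within Cd244 to within Slamf6 and takes out Ly9, Slamf7, Cd48, Slamf1 and Cd84 between them, the genes of the SLAM family receptors. The labels name neither the age and sex of the mice nor a Cre or promoter that would limit the deletion to some cells.

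A germinal centre B cell that has captured antigen and received T cell help grows before it divides, and that growth needs amino acids from outside. Transporters in the plasma membrane bring in leucine, glutamine, arginine and cystine, and the kinase complex mTORC1 reads the supply at the lysosome. The transporters work together: a sodium-coupled carrier accumulates one amino acid, which an exchanger then trades for another. MYC, which is induced in selected cells, and ATF4, the factor of the amino acid response, are known to raise the transcription of several of these genes.

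Of the 8 transporters, 7 were abundant transcripts and Slc7a11 was close to absent in both genotypes. None of the 7 that could be tested passed the threshold between SFR KO and wildtype cells, and their fitted fold changes lay between 0.898 and 1.1. Slc7a5 and Slc38a2 lay farthest from 0, at log2 differences of -0.16 and 0.14. The 95% intervals of the 7 fold changes all lay between 0.783 and 1.25, so larger changes of the group means fell outside the limma intervals.

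The libraries held 28269310 to 33053024 reads assigned to genes. The deleted receptor genes had 0 to 30 reads each over the 3 SFR KO libraries together, against 154 to 16589 over the wildtype libraries, as the genotype labels say. Markers of germinal centre B cells, 10 genes that include Bcl6, Fas and S1pr2, summed to 185194 to 188532 normalized reads in SFR KO and 180106 to 186527 in wildtype libraries. Marker sums of other cells were far smaller: 8 T cell genes summed to 4761 to 6936 in SFR KO and 4332 to 4646 in wildtype libraries. The 8 neutrophil genes summed to 361.3 to 1824 in SFR KO and 851.2 to 6134 in wildtype libraries, and the 8 red cell genes to 1600 to 4308 in SFR KO and 1449 to 8042 in wildtype libraries. The 9 macrophage and dendritic cell genes summed to 2713 to 5159 in SFR KO and 3229 to 5398 in wildtype libraries. The highest neutrophil, red cell and macrophage sums of all libraries stood in wildtype 1. The 7 plasma cell genes summed to 33146 to 34408 in SFR KO and 30316 to 31004 in wildtype libraries. The 7 genes of resting follicular B cells summed to 17398, 9573 and 9471 in SFR KO 1, 2 and 3. They summed to 18701, 18830 and 14680 in wildtype 1, 2 and 3. SFR KO 1 thus lay among the wildtype sums, and SFR KO 2 and 3 lay below them. Among these markers the neutrophil genes Elane, Ly6g and Mpo were at 0 in 4, 2 and 1 libraries, and the plasma cell gene Tnfrsf17 in 3. The part of such cells in the transporter values was not tested.

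The promoter windows below are shown because they belong to the member close to 0, Slc7a11, and to 2 abundant members. RefSeq windows of 300 bases on GRCm38.p6, from 250 bases before the start of transcription to 50 after it, matched 5 of the 8 members: Slc7a11, Slc3a2, Slc38a2, Slc7a1 and Slc7a6. The windows lie at chr3:50443564-50443863 (minus strand) for Slc7a11, chr19:8713848-8714147 (minus strand) for Slc3a2 and chr15:96699679-96699978 (minus strand) for Slc38a2. The Slc3a2 window lies inside the annotated gene (chr19:8706882-8723369), not at its outermost start, whereas the Slc7a11 and Slc38a2 windows cover theirs. Capitals mark the letters of 3 motifs searched on both strands: TGATGNAA, the core of the amino acid response element that ATF4 binds, CACGTG, the E box of MYC and its relatives, and TGACNNNGC, the core of the antioxidant response element bound by NRF2.
Slc7a11: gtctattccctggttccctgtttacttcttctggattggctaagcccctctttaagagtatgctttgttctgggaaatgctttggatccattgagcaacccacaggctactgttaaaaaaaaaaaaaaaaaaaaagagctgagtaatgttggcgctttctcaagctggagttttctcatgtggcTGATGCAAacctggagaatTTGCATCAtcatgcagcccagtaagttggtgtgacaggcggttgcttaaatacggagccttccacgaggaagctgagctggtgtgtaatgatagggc
Slc3a2: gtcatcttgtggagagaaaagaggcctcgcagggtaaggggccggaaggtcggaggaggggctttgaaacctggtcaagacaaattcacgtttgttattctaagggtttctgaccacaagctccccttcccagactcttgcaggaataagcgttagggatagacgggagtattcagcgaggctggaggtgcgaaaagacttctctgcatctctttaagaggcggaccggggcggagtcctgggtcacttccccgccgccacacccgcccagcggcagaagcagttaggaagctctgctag
Slc38a2: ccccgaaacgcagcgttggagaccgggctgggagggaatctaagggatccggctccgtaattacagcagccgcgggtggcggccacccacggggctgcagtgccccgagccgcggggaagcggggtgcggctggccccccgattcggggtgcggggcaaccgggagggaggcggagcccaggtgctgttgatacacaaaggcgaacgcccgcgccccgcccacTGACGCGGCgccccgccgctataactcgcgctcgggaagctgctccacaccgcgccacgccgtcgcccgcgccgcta
In the Slc7a11 window the amino acid response core occurred in 2 copies, once on each strand, and no other motif was found. TGATGNAA occurred in 3.97% of the 32851 promoter windows, CACGTG in 7.15% and TGACNNNGC in 12.4%. The Slc3a2 window held none of these letters, the Slc38a2 window held 1 antioxidant core, and no match overlapped another. An antioxidant core also stood in 1 of the Slc7a1 windows and at a site shared by the overlapping Slc7a6 windows, which are not printed. These are matches of letters in short windows and say nothing of whether a factor binds there or elsewhere in the gene.

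Levels can be compared between genes only per transcript length, so normalized reads were divided by the length in kilobases of the longest annotated transcript. Slc1a5, which exchanges neutral amino acids such as glutamine, had the highest level of the 8, with a mean of 1781 normalized reads per kilobase over the 6 libraries. Slc38a1 and Slc38a2, which take up glutamine and other small neutral amino acids with sodium, followed at 1448 and 1193. The arginine and lysine transporter Slc7a1 stood at 970.9, the glycoprotein Slc3a2 at 840 and the leucine exchanger Slc7a5 at 837.8. Slc7a6, which exchanges cationic for neutral amino acids, stood at 432.1, and Slc7a11, the cystine and glutamate exchanger, at 0.449. Among neighbours in this order, the ranges over the 6 libraries overlapped between Slc38a1 and Slc38a2, between Slc38a2 and Slc7a1, and between Slc3a2 and Slc7a5. The other neighbouring ranges did not overlap. With the union of all exons as the length, Slc1a5 stayed first and Slc7a6 and Slc7a11 last, but Slc38a1, whose annotated exons cover 17236 bases, moved to the fifth place. Among all tested genes the level per kilobase of the 7 abundant members lay between the 66th percentile for Slc7a6 and the 90.9th for Slc1a5.

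**Figure D1:**
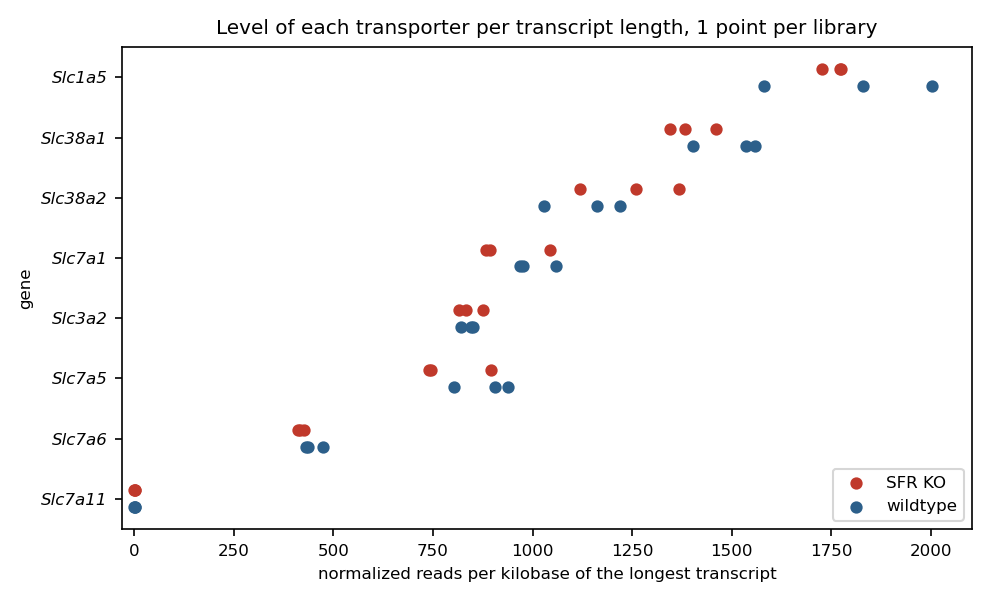
Level of each transporter in every library, as normalized reads per kilobase of the longest transcript (x axis, linear), with SFR KO points above wildtype points for each gene (y axis, ordered by mean). Slc1a5 is highest with a mean of 1781, Slc7a11 lies near 0, and the points of the genotypes overlap in all genes but Slc7a6.

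The leucine route was examined as its heavy and light chain. Slc7a5 (chr8:121881150-121907694, minus strand, GRCm38) carries large neutral amino acids, leucine among them, in exchange for others. It reaches the cell surface bound to Slc3a2 (chr19:8706882-8723369, minus strand), the heavy chain of the surface antigen CD98. Slc7a5 had 2606, 2615 and 3149 normalized reads in SFR KO 1, 2 and 3, against 2820, 3303 and 3187 in wildtype 1, 2 and 3. SFR KO 1 and 2 lay below every wildtype library, and SFR KO 3 lay within the wildtype range. The log2 difference was -0.16 ± 0.09 (SE), with a 95% interval of -0.35 to 0.04 and a limma adjusted p = 0.425 over all 13562 tested genes. It was -0.09 after GC correction and -0.25 without SFR KO 3. Slc3a2 had 2343, 2296 and 2462 normalized reads in SFR KO libraries and 2392, 2379 and 2305 in wildtype libraries. Its 6 values spanned a narrow range in which the genotypes overlapped, with a fitted log2 value of 0.00 ± 0.05 (limma adjusted p = 0.976). The sign of this difference was not fixed: it was -0.02 without SFR KO 3 and -0.01 without wildtype 3.

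Slc3a2 also pairs with the light chains Slc7a6, Slc7a7, Slc7a8, Slc7a10 and Slc7a11. Per kilobase, Slc7a5 made up 51.5% ± 1.38 of the summed light chain level in SFR KO and 53.9% ± 4.06 in wildtype libraries (mean ± SD, n = 3 each), and Slc7a6 27.3% ± 2.79 in SFR KO and 27.3% ± 1.58 in wildtype libraries. Slc7a7, a further exchanger of cationic and neutral amino acids that is no member here, supplied most of the rest, with a mean of 314.4 normalized reads per kilobase. The ratio of Slc3a2 to all light chains per kilobase was 0.586, 0.548 and 0.513 in SFR KO 1, 2 and 3, against 0.522, 0.51 and 0.504 in wildtype 1, 2 and 3. SFR KO 1 and 2 lay above the wildtype libraries and SFR KO 3 lay among them. The means were 0.549 ± 0.0363 in SFR KO and 0.512 ± 0.00903 in wildtype libraries (SD, n = 3 each). In every library, light chain transcript exceeded heavy chain transcript on this scale, which measures RNA and not protein.

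For the glutamine carriers the values went in different directions. Slc1a5 (chr7:16781340-16798274, plus strand) had 4972, 4851 and 4981 normalized reads in SFR KO 1, 2 and 3, against 4437, 5624 and 5134 in wildtype 1, 2 and 3. The SFR KO values lay close together inside the wider wildtype range. The log2 difference was -0.03 ± 0.08 (limma adjusted p = 0.892), and it was 0.03 after correction for GC content and 0.05 without wildtype 2.

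Slc38a1, a sodium-coupled neutral amino acid transporter, had 9778, 10050 and 10620 normalized reads in SFR KO and 11326, 11169 and 10203 in wildtype libraries. It was the member with the most reads, and wildtype 3 lay among the SFR KO values. Its log2 difference was -0.10 ± 0.06 with a 95% interval of -0.23 to 0.03 (limma adjusted p = 0.422). Slc38a2, which performs the same kind of transport and is known to be induced when amino acids are scarce, had 6847, 7707 and 8361 normalized reads in SFR KO and 7453, 6293 and 7102 in wildtype libraries. SFR KO 2 and 3 lay above all wildtype libraries and SFR KO 1 lay between them. The log2 difference was 0.14 ± 0.08 with an interval of -0.05 to 0.32 (limma adjusted p = 0.471). It was 0.21 without SFR KO 1, 0.07 without SFR KO 3 and 0.07 without wildtype 2.

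Slc38a1 (chr15:96571418-96642913) and Slc38a2 (chr15:96687392-96699730) are neighbours on the minus strand of GRCm38, with 44478 bases between them. The ratio of Slc38a2 to Slc38a1 in normalized reads was 0.7, 0.767 and 0.787 in SFR KO 1, 2 and 3, against 0.658, 0.563 and 0.696 in wildtype 1, 2 and 3. All 3 SFR KO ratios were above all 3 wildtype ratios, by a narrow margin between SFR KO 1 and wildtype 3. This ratio was chosen after its values were seen and was not tested.

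The cationic routes had lower values in part of the SFR KO libraries. Slc7a1 (chr5:148327410-148399904, minus strand), the main carrier of arginine and lysine in many cells, had 6410, 6339 and 7496 normalized reads in SFR KO and 7604, 7015 and 6958 in wildtype libraries. As for Slc7a5, SFR KO 1 and 2 lay below every wildtype library while SFR KO 3 did not. The log2 difference was -0.10 ± 0.07 (95% interval -0.26 to 0.07, limma adjusted p = 0.564). It was -0.17 without SFR KO 3, and -0.06, -0.05 and -0.05 without SFR KO 1, SFR KO 2 and wildtype 1. Slc7a6 (chr8:106168857-106198706, plus strand) had 1595, 1541 and 1558 normalized reads in SFR KO and 1775, 1619 and 1632 in wildtype libraries. It was the 1 member of the 7 tested whose groups did not overlap, with all SFR KO values lower; over all tested genes the groups did not overlap for 21.7%, and for 11.9% with SFR KO lower. The log2 difference of Slc7a6 was -0.10 ± 0.06 with an interval of -0.23 to 0.04, and it missed the threshold (limma adjusted p = 0.468). It was -0.05 without wildtype 1.

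Slc7a11 (chr3:49892526-50443614, minus strand) brings in cystine in exchange for glutamate and thereby feeds glutathione synthesis. It had 1, 7 and 5 reads in SFR KO 1, 2 and 3, against 8, 4 and 0 in wildtype 1, 2 and 3. In normalized reads these were 0.985, 7.66 and 4.68 in SFR KO libraries and 7.43, 4.1 and 0 in wildtype libraries, and the groups overlapped. The 0 of wildtype 3 allows up to 3 reads at its depth, which are 3.05 normalized reads. Over the groups, 13 reads in SFR KO and 12 in wildtype gave a ratio of 1.1 with an exact binomial 95% interval of 0.462 to 2.63, which covers counting error only. The gene fell under the minimum mean of 10 normalized reads and was left out of the main test. With no such minimum, limma gave a log2 difference of 0.39 ± 0.84 with a 95% interval of -1.43 to 2.22 (adjusted p = 0.87), a wider interval that takes in the spread between libraries. Slc3a2, its heavy chain, was abundant in the same libraries.

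**Figure D2:**
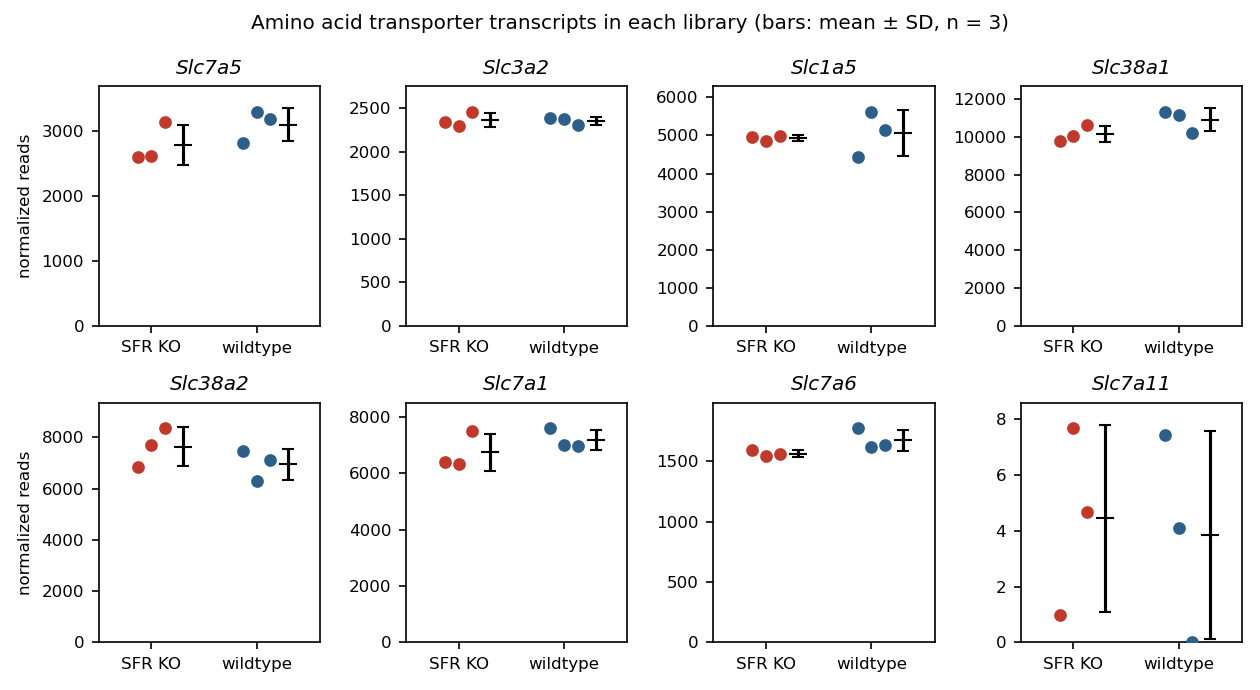
Normalized reads (y axis, from 0, a scale of its own for each gene) of the 8 transporters in SFR KO libraries (left) and wildtype libraries (right), points from left to right being libraries 1, 2 and 3, with mean and SD beside them. Groups overlap for all genes but Slc7a6, and Slc7a11 has fewer than 8 normalized reads in any library.

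Across the whole table, limma called 63 of 13562 tested genes, 0.465%, of which 21 (0.155%) were higher and 42 (0.31%) lower in SFR KO cells. Of the members, 0 of 7 were called, and 0 had an unadjusted p under 0.05, where 16.1% of all tested genes did. On the recovered reads edgeR and DESeq2 also called 0 of the 7 members, against 0.221% and 3.62% of all genes. The median log2 difference of the 7 members was -0.10, with 5 below 0, against a median of 0.00 over all tested genes, of which 50.7% were below 0. With a GC trend taken out of each library the median was -0.07, with 4 below 0. In the authors' deposited table the 7 genes had log2 fold changes of KO over wildtype from -0.15 for Slc7a5 to 0.14 for Slc38a2, with adjusted p-values of 0.403 to 0.984. The sample titles carry numbers but no statement that each is 1 mouse. The p-values therefore rest on the spread among these 6 samples, which may be technical in part. In such sorted pools, fewer cells with a transcript and less transcript per cell cannot be told apart.

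**Figure D3:**
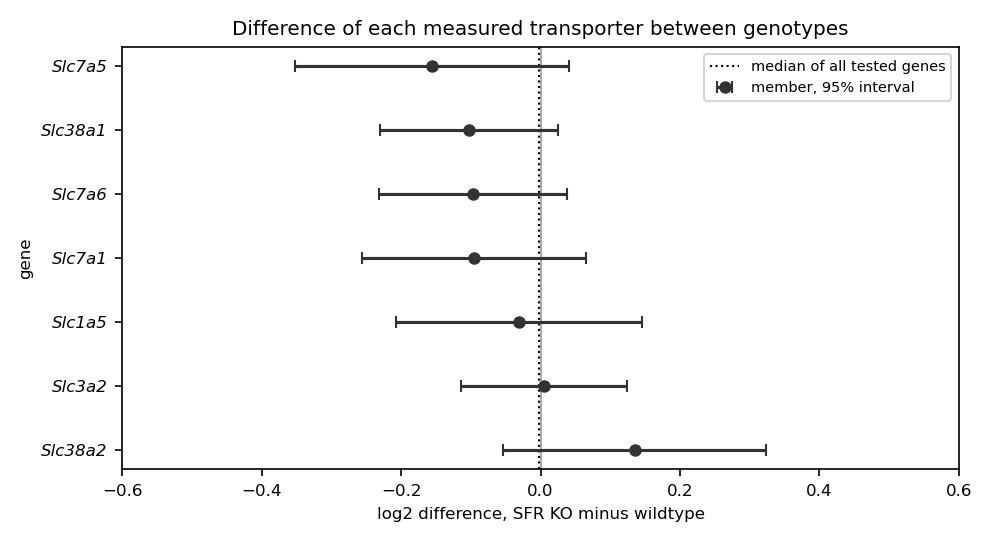
Log2 difference of SFR KO minus wildtype (x axis) for the 7 tested transporters (y axis), with points for the limma estimate, bars for its 95% interval and a dotted line at the median of all tested genes. Every interval spans 0, from Slc7a5 at -0.16 to Slc38a2 at 0.14.

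The members did not vary together across the 6 libraries in a single pattern. Of the 7 abundant genes, 5 had their lowest value in SFR KO 1 or SFR KO 2, and 5 had their highest in wildtype 1 or wildtype 2, while 2 were highest in SFR KO 3. Slc7a5 deviated from its own mean by a log2 of -0.17 and -0.17 in SFR KO 1 and 2 and by 0.10 in SFR KO 3, a spread within the genotype that was larger than the difference between the genotypes. As a description over 6 libraries, which share their scaling, the log2 levels of Slc38a1 and Slc7a1 were most alike (Pearson r = 0.801), followed by Slc3a2 and Slc7a1 (0.764). Slc1a5 and Slc38a2 were least alike (-0.594), and the partners Slc7a5 and Slc3a2 stood at 0.398. Among 8534 genes averaging 200 normalized reads or more, the 5 most like Slc7a5 over the 6 libraries were Itgal, an integrin chain of lymphocytes, Ubald1, Srcap, a chromatin remodeller, Gbf1, an exchange factor of the Golgi, and Fem1a. Their Pearson r ran from 0.979 to 0.989, the highest of many compared, and their log2 differences ran from -0.20 to -0.09, all short of the threshold (limma adjusted p of 0.388 to 0.567). After GC correction Itgal, Gbf1, Fem1a and Ubald1 stood at -0.06, -0.06, -0.05 and -0.02.

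**Figure D4:**
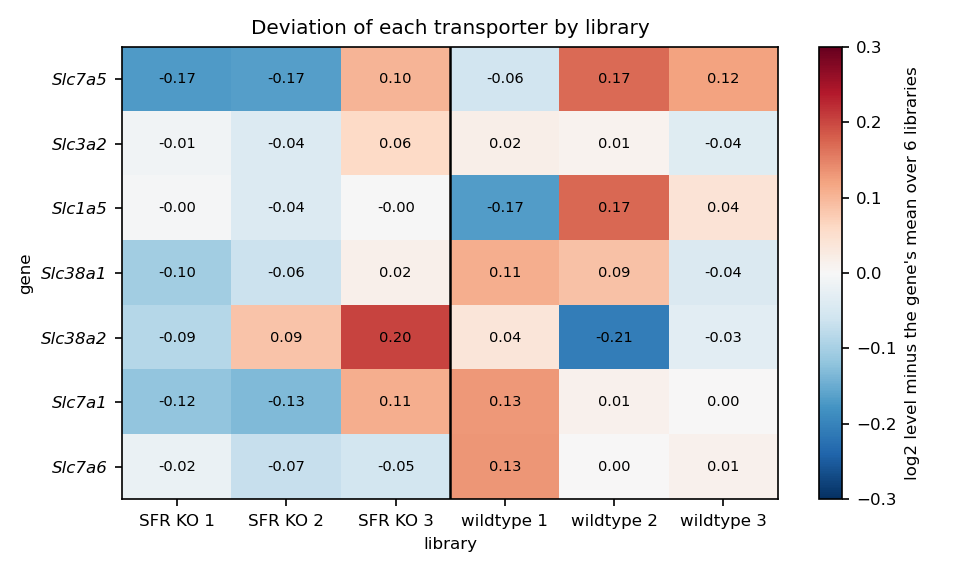
Deviation of the log2 level of each of the 7 abundant transporters (rows) from its own mean in each library (columns, SFR KO left of the line and wildtype right of it), with the value printed in each cell. Slc7a5 and Slc7a1 are below their means in SFR KO 1 and 2 and above them in SFR KO 3, and Slc38a2 runs from -0.21 in wildtype 2 to 0.20 in SFR KO 3.

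Regulators of these genes were examined next. Myc, a transcription factor of cell growth that is induced in selected cells, was the 1 called gene among the lists described here. These lists held 157 tested genes beside the members, and limma called 0.465% of all tested genes. Myc had 1076, 1140 and 1282 normalized reads in SFR KO 1, 2 and 3, against 1715, 1653 and 1614 in wildtype 1, 2 and 3, so that the groups were far apart. It fell to 0.701 times its wildtype level (log2 -0.51 ± 0.07, limma adjusted p = 0.0322). The call was lost after GC correction (log2 -0.47, adjusted p = 0.0818) and without SFR KO 2 (adjusted p = 0.177), wildtype 1 (0.124), wildtype 2 (0.113) or wildtype 3 (0.105). Myc belongs to a list of 7 genes of CD98 partners and regulators, of which 5 were below 0 with a median of -0.12. Limma and edgeR called Myc alone in it and DESeq2 also called Nedd4, where DESeq2 called 3.62% of all genes. Nedd4 is a ubiquitin ligase named here after its values were seen. It had 4345, 3068 and 3304 normalized reads in SFR KO and 4849, 5108 and 4250 in wildtype libraries (log2 -0.42 ± 0.12, limma adjusted p = 0.148). Atf4, whose product is controlled mainly at translation, had 5180, 5628 and 5424 normalized reads in SFR KO and 4679, 4821 and 5107 in wildtype libraries. All 3 SFR KO values of Atf4 were above the wildtype values, as held for 9.78% of all tested genes. The log2 value of 0.15 ± 0.05 missed the threshold (limma adjusted p = 0.22), as did that of 0.21 after GC correction (limma adjusted p = 0.129). Nfe2l2, which encodes the oxidative stress factor NRF2, and Hif1a, of the oxygen response, stood at -0.10 ± 0.06 and 0.09 ± 0.06 (limma adjusted p = 0.456 and 0.516). Nfe2l2 was at -0.06 without SFR KO 3, and Hif1a at 0.16 without SFR KO 1, 0.04 without SFR KO 3 and 0.02 after GC correction.

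The other amino acid transporters of the plasma membrane and lysosome formed a list of 49 genes, of which 20 reached the minimum level. The members made up 60.4% ± 0.355 of the summed level per kilobase of all these transporters in SFR KO and 61.8% ± 1.09 in wildtype libraries (SD, n = 3 each). Limma and edgeR called 0 of the 20 and DESeq2 called 2, where it called 3.62% of all genes. At an unadjusted p under 0.05, 4 were higher and 3 lower, against 7.04% higher and 9.07% lower over all genes. The groups did not overlap for 4 higher and 3 lower of the 20, where 9.78% and 11.9% of all tested genes did so. The 2 genes with the lowest p, and the 2 that DESeq2 called, sit on the lysosome. Slc38a9, an arginine sensor of mTORC1, had 846.4, 902.1 and 993.7 normalized reads in SFR KO and 651.3, 731.3 and 740.5 in wildtype libraries (log2 0.37 ± 0.09, limma adjusted p = 0.103; DESeq2 0.0171). Slc15a4, a carrier of histidine and small peptides known for its part in Toll-like receptor signalling, had 4789, 4824 and 5235 in SFR KO and 4288, 3491 and 4291 in wildtype libraries (log2 0.30 ± 0.08, limma adjusted p = 0.132; DESeq2 0.0121). For both, every SFR KO value was above every wildtype value. Limma called Slc38a9 with array weights (adjusted p = 0.0297) and without SFR KO 1 (0.0368). Over the whole table those fits called 630 and 501 genes in that order, against 63 in the main fit. After GC correction Slc38a9 stood at 0.34 (limma adjusted p = 0.164) and Slc15a4 at 0.36 (0.123).

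Amino acid sensing and mTORC1 genes, 37 measured, gave a median of -0.02 on the log2 scale and 0 limma or edgeR calls. DESeq2 called Wdr59 alone among them, where it called 3.62% of all genes. Wdr59, a subunit of the GATOR2 complex that relays amino acid supply to mTORC1, had 507.5, 466.4 and 483.3 normalized reads in SFR KO and 658.7, 617.5 and 597.2 in wildtype libraries (log2 -0.36 ± 0.08, limma adjusted p = 0.0947; DESeq2 0.0397). Limma called it with array weights (adjusted p = 0.0253) and without SFR KO 1 (0.0477), and not after GC correction (log2 -0.35, adjusted p = 0.131). Bmt2, which encodes the methionine-related sensor SAMTOR, stood at 0.29 ± 0.09 (limma adjusted p = 0.189), and at 0.15 after GC correction (0.557). In this list 9 genes were lower and 1 was higher at an unadjusted p under 0.05, against 9.07% lower and 7.04% higher over all genes. After GC correction 3 of the 37 were lower and 0 higher at that p, against 1082 lower and 794 higher of 13539 genes.

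The list of ATF4 and the amino acid response had 24 measured genes, with a median of -0.11 and 18 below 0. Limma and edgeR called 0 of them and DESeq2 called 2, against 3.62% of all genes for DESeq2. At an unadjusted p under 0.05 there were 6 lower and 1 higher of the 24, against 9.07% lower and 7.04% higher over all genes. After GC correction the median was -0.08 with 18 below 0. At that p 6 of the 24 were then lower and 1 higher, against 1082 lower and 794 higher of 13539 genes. Aldh18a1, of proline synthesis, had 2313, 2316 and 2365 normalized reads in SFR KO and 2888, 2752 and 2802 in wildtype libraries. Its groups were separate, and its log2 difference of -0.27 ± 0.05 narrowly missed the limma threshold (adjusted p = 0.0525; DESeq2 0.00248). It was called with a minimum mean of 50 reads (0.0463), a robust prior (0.0392), array weights (0.015), length correction (0.0449) and without SFR KO 1 (0.03), and stood at 0.124 after GC correction. Shmt2, the mitochondrial serine hydroxymethyltransferase that is in this list and in that of amino acid enzymes, stood at -0.21 ± 0.05 (limma adjusted p = 0.121, DESeq2 0.0269). Limma called it with array weights (0.0209) and without SFR KO 1 (0.0211), and it stood at -0.14 after GC correction (adjusted p = 0.286). The 25 measured enzymes of glutamine, serine and branched-chain amino acids had a median of -0.05, with 16 below 0. Limma and edgeR called 0 of them and DESeq2 called Shmt2, where it called 3.62% of all genes. At an unadjusted p under 0.05, 5 of the 25 were lower and 0 higher, against 9.07% and 7.04% of all genes. After GC correction the median was -0.02 with 18 below 0, and 4 of the 25 were lower and 0 higher at that p. This list and that of ATF4 share Asns, Phgdh, Psat1, Psph and Mthfd2 besides Shmt2. In the main fit Asns and Shmt2 count as lower in each. Glul, glutamine synthetase, stood at -0.19 ± 0.06 (limma adjusted p = 0.183, 0.0475 with array weights and 0.24 after GC correction).

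Cytosolic aminoacyl-tRNA synthetases and their scaffold proteins, which load amino acids onto tRNA, gave a median of -0.08 on the log2 scale, and 19 of 23 fitted values were below 0, where 50.7% of all tested genes were. Limma and edgeR called 0 of them and DESeq2 called 1, where it called 3.62% of all genes. Of the 23, 8 were lower and 1 higher at an unadjusted p under 0.05, against 9.07% and 7.04% of all genes. Cars, the cysteinyl-tRNA synthetase, had 1342, 1367 and 1277 normalized reads in SFR KO and 1582, 1649 and 1639 in wildtype libraries, with no overlap (log2 -0.29 ± 0.06, limma adjusted p = 0.0627; DESeq2 0.00998). Limma called it with a robust prior (0.047), with array weights (0.0253) and without SFR KO 1 (0.0379). Over the whole table those fits called 161, 630 and 501 genes in that order, against 63 in the main fit. The tyrosyl-tRNA synthetase Yars stood at -0.19 ± 0.05 (limma adjusted p = 0.133; 0.0416 with array weights). After GC correction the median of the list was -0.07 and 20 of 23 were below 0. At an unadjusted p under 0.05, 4 of the 23 were then lower and 0 higher, against 1082 and 794 of 13539 genes. Cars then stood at -0.24 (limma adjusted p = 0.129) and Yars at -0.15 (0.243).

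The cystine, glutathione and NRF2 list, which surrounds the route that Slc7a11 feeds, had 16 measured genes with a median of -0.07. Limma, edgeR and DESeq2 called 0 of them, and 3 of the 16 were lower and 1 higher at an unadjusted p under 0.05, against 9.07% and 7.04% of all genes. Gclc, the catalytic subunit for the limiting step of glutathione synthesis, had 1166, 1447 and 1405 normalized reads in SFR KO and 1609, 1678 and 1582 in wildtype libraries (log2 -0.28 ± 0.08, limma adjusted p = 0.159), and its log2 difference was -0.19 without SFR KO 1. The thioredoxin gene Txn1 stood at 0.18 ± 0.06 (limma adjusted p = 0.189, 0.0497 with array weights and 0.255 after GC correction).

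**Figure D5:**
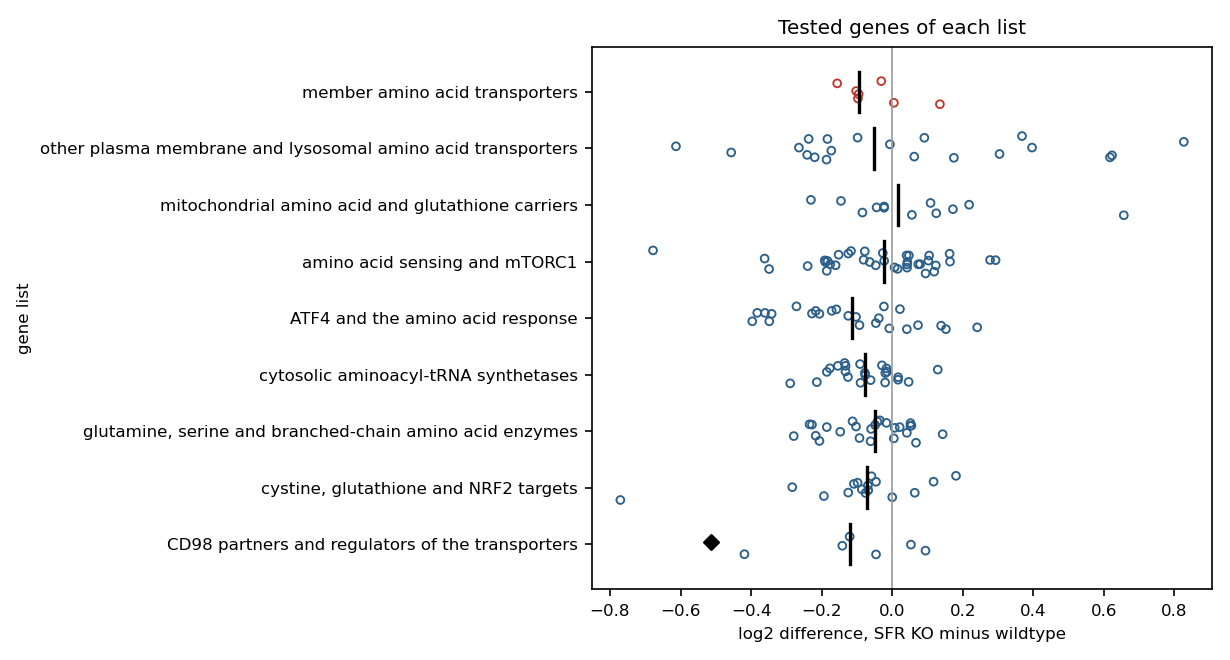
Log2 difference of SFR KO minus wildtype (x axis) for every tested gene of each list (rows), with open circles for genes short of the threshold, a diamond for a gene with a limma adjusted p under 0.05 and a line at the median. Myc is the 1 diamond, at -0.51, and the medians lie between -0.12 and 0.02.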

How the data were processed

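Germinal centre B cell RNA of 3 SFR KO and 3 wildtype libraries was measured by RNA-seq; replicates were numbered in accession order and pair nothing. GRCm38 and the tools featureCounts 1.5, STAR 2.5 and DESeq2 1.14.1 are named in the submitters' processing notes; annotation, strand setting and filters were not given in the sources used here. Deposited values are normalized counts (a signal per gene and library), and beside them the authors give a mean, a log2 fold change with its error, a score (the test statistic) and raw and adjusted p-values. All values (100%, tolerance 1e-06) came out as whole reads after division by each library's smallest value.

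Limma 3.58.1 (R 4.3.3; lmFit, eBayes with trend) was run on log2(normalized count + 1) with genotype as factor, two-sided, over genes averaging 10 normalized reads or more, with Benjamini-Hochberg adjustment over all of them and a threshold of 0.05; this scale understates changes of low genes. Fold changes are SFR KO over wildtype. Alternatives were edgeR 4.0.16 and DESeq2 1.42.0 on the recovered reads and the other settings in the closing section. Transcript lengths and GC content came from GENCODE M21 (GRCm38), which matched 99.5% of genes and gave a GC content for 99.8% of tested genes. No gene overlapped a member's exons there. Steps were tested on simulated counts.

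The members and the 8 further lists (193 genes) were chosen with earlier results of these data known. Named are all members, and from each list up to 4 called genes or otherwise the 2 with the lowest p, then Myc, Atf4, Nfe2l2, Hif1a and the 5 genes most like Slc7a5. 1 marker gene of germinal centre B cells was left out of its sum and is not reported here.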

Additional observations from a re-analysis of the deposited data

How the results depend on the processing

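Under the 18 alternative settings the 7 tested members gave 0 calls each time, and the lowest adjusted p of any member was 0.145 (Slc38a2 without SFR KO 1). Slc7a5, Slc38a1, Slc7a1, Slc7a6 and Slc38a2 kept their direction in all 18, with log2 differences of -0.25 to -0.09, -0.15 to -0.07, -0.17 to -0.05, -0.12 to -0.05 and 0.07 to 0.21 in that order. The log2 difference of Slc3a2 was -0.0096 with array weights and ran from -0.024 to 0.027 with 1 library left out, and that of Slc1a5 was 0.034 after GC correction and ran from -0.12 to 0.048. The number of genes called in the whole table moved from 63 to 129 with no filter, 98 with a minimum mean of 50, 30 with edgeR, 491 with DESeq2, 161 with a robust prior, 630 with array weights, 20 after GC correction and 112 after length correction; with 1 library left out it ran from 11 (without SFR KO 2) to 501 (without SFR KO 1). Of the other list genes, 1 was called, against 2 with a minimum mean of 50, 8 with DESeq2, 3 with a robust prior, 12 with array weights, 0 after GC correction and 2 after length correction, and 0 to 8 with 1 library left out, 8 being without SFR KO 1; the causes were not tested. The log2 ratio of heavy to light chains, SFR KO minus wildtype, was 0.10, 0.11 with the union of exons, and 0.05 to 0.15 with 1 library left out. The median of all tested genes lay within 0.02 of 0 in each setting. No paired analysis was possible because the labels give no replicate number shared between the genotypes. Arm sizes of 3 limit what could be seen to the intervals given, and Slc7a11 with its few reads could be tested only with no filter.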

Other observations

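Mitochondrial carriers of amino acids and glutathione, 12 of them measured, had a median log2 difference of 0.02 with 6 above and 6 below 0. Limma, edgeR and DESeq2 called 0 of them, and at an unadjusted p under 0.05 there were 2 lower and 1 higher of the 12, against 9.07% lower and 7.04% higher over all tested genes. Slc25a39, a carrier of glutathione into mitochondria, had 1802, 1682 and 1824 normalized reads in SFR KO and 1933, 1896 and 2040 in wildtype libraries, so that its groups did not overlap (log2 -0.15 ± 0.06, limma adjusted p = 0.273; log2 -0.08 after GC correction). The ornithine carrier Slc25a15 stood at -0.23 ± 0.10 (limma adjusted p = 0.286), and SFR KO 3 lay among its wildtype values.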
